A study of Mus musculus with 12 samples.

Results

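The comparison described here asks whether the change in liver gene expression after diethylnitrosamine (DEN), a carcinogen that liver enzymes activate, differed between mice labelled Otud3 knockout and wild-type (WT) littermates. It uses 12 of the 12 RNA-seq libraries of the series and the 13371 of 14944 genes that all 4 deposited tables list. The groups, with 3 mice each, were WT without DEN, labelled knockout without DEN, WT with DEN and labelled knockout with DEN. All mice were male C57BL/6. DEN was injected once into the peritoneum at 25 mg/kg on day 15 of life, and tissue was taken 30 weeks after the injection. For mice without DEN the labels give neither an age nor a sham injection, so DEN cannot be told apart from age or injection. Sample labels name the tissue liver and the series' design text calls it liver cancer; neither says how much tumour each piece held. Which part of Otud3 is deleted, and in which cells, is not given in the sources used here.

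The interaction is a difference of differences on the log2 scale: the change with DEN in labelled knockout minus the change with DEN in WT. A value below 0 means that the level moved less upward, or more downward, with DEN in labelled knockout than in WT. Otud3 encodes a deubiquitinase, an enzyme that removes ubiquitin from other proteins. Hepatocytes secrete much of the protein of blood plasma. Their endoplasmic reticulum (ER) folds these proteins with chaperones such as Hspa5 (BiP), attaches N-glycans and ships cargo in coated vesicles. When unfolded proteins collect in the ER, the unfolded protein response (UPR) raises the transcription of chaperone genes through sensors such as Eif2ak3 (PERK), and the transcription factor ATF6 acts at ER stress response elements in their promoters.

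That element, CCAAT followed by 9 bases of any kind and CCACG, was searched on both strands in RefSeq promoter windows (GRCm38.p6, 250 bases before to 50 after a start site). It was present in 9 of the 29 genes of the ER chaperone and UPR list that had a window (31%). Of all tested genes with a window, 19 of 10252 had the element (0.185%), and of all 32851 windows 39 did (0.119%). It was present in 0 of 16 signal recognition and translocation genes and in 1 of 25 N-glycan genes. The 4 windows shown run from the gene with an element and the strongest negative interaction to the one with an interaction above 0, and capitals mark the 2 fixed parts of the element. Where the element reads in the opposite direction, they appear as CGTGG and ATTGG. The windows are Creld2 at chr15:88819500-88819558 (+ strand), Hspa5 at chr2:34772005-34772063 (+ strand), Syvn1 at chr19:6046512-6046570 (+ strand) and Calr at chr8:84847055-84847113 (- strand).
Creld2: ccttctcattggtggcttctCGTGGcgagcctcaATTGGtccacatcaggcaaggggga
Hspa5: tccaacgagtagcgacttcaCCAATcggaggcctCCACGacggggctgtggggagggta
Syvn1: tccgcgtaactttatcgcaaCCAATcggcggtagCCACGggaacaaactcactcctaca
Calr: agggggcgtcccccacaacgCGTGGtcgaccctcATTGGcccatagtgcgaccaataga

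Libraries held 29668861 to 31111765 counts, and hepatocyte markers were abundant in all of them: 7 markers summed to between 83013 and 141157 counts per 1000000 (CPM, TMM-scaled). DEN WT replicate 2 stood apart. It lay at 129.37 on the first principal component (46.03% of variance), against -31.2 to 13.73 for the other libraries, so the interaction was fitted with it and without it. Otud3, the targeted gene (Entrez 73162, chromosome 4, 138891063 to 138914026, GRCm38.p6), was at 13.6, 13.2 and 12.9 CPM in WT without DEN and at 18.4, 10.8 and 15.6 CPM in WT with DEN. In labelled knockout it was at 15.7, 10.9 and 7.39 CPM without DEN and at 8.53, 12.4 and 12.3 CPM with DEN. WT without DEN lay above labelled knockout with DEN, the other pairs of groups overlapped, and reads from outside a deleted part would not check the label. The interaction of Otud3 was -0.20 ± 0.38 (log2, SE), and -0.39 ± 0.36 without DEN WT replicate 2.

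With all 12 libraries, edgeR called 0 of 12909 genes for the interaction at an adjusted p of 0.05 (0%), and the smallest adjusted p was 0.735. At an unadjusted p under 0.05, 565 genes had a lower interaction (4.38% of genes tested) and 277 a higher one (2.15%). Without DEN WT replicate 2, edgeR again called 0 of 12962 genes (0%), with a smallest adjusted p of 0.61; at the unadjusted threshold 501 were lower (3.87%) and 377 higher (2.91%). The balance of directions depended on scaling: with library size in place of TMM, 347 of 727 genes were higher with all libraries and 646 of 924 without the replicate, where this scaling moved the median of all genes from 0.008 to 0.131. On the log2(TPM + 1) scale 494 of 652 and 958 of 1140 were higher. DESeq2 called 12 genes with all libraries (0.122% of the 9801 to which it gave an adjusted p) and 28 without the replicate (0.226% of 12416), 9 of them shared. The median 95% interval of a gene reached 0.73 log2 to either side (1.66-fold) with all libraries and 0.61 (1.52-fold) without the replicate. The interval lay wholly within a 2-fold difference for 5874 genes (45.5%) and 7457 genes (57.5%), respectively. For the other genes the data do not show whether the genotypes responded alike.

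The 565 genes with a lower interaction had a median change with DEN of 0.62 in WT and -0.23 in labelled knockout (log2). The 277 with a higher interaction had a median of -0.56 in WT and 0.27 in labelled knockout. These signs follow in part from how the genes were chosen. Of the 565 lower genes, 342 (60.5%) were also among the 501 lower genes without DEN WT replicate 2 (68.3%). Of the 277 higher genes, 198 (71.5%) were among the 377 (52.5%).

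**Figure D1:**
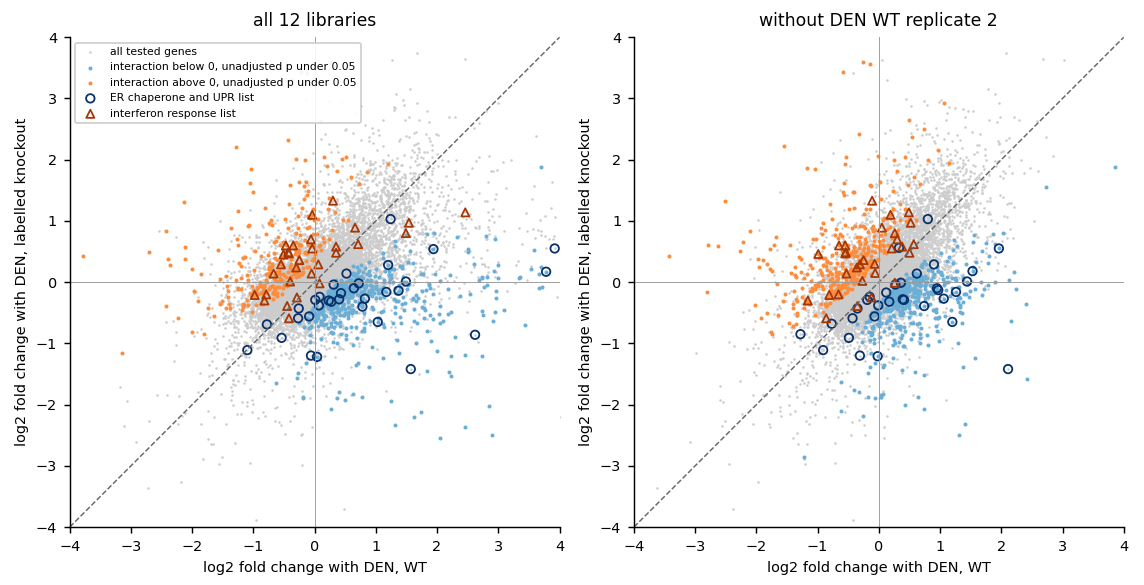
Log2 fold change with DEN in WT (horizontal axis) against labelled knockout (vertical axis) for each of 12909 genes, with all 12 libraries (left) and without DEN WT replicate 2 (right); 55 and 17 genes lie outside the limits of 4. Points on the dashed line have an interaction of 0; coloured points have an unadjusted p under 0.05, and most open circles of the ER list lie below the line (31 of 32 members on the left, 28 on the right).

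Among the genes that DESeq2 called, 8 had a lower interaction. In each of the 8 all 3 DEN WT libraries were above the other 9 libraries, as in 2.56% of all tested genes. Choosing genes by the interaction in these same libraries favours such an order. Cad, which catalyses the first steps of pyrimidine synthesis (chromosome 5, 31054620 to 31078479), was at 9.59, 10.2 and 7.74 CPM in WT without DEN and at 26.2, 27.1 and 21.6 CPM with DEN. The labelled knockout libraries were at 12, 9.03 and 9.27 CPM without DEN and at 10.1, 13 and 8.81 CPM with DEN. Its level was thus high in the 3 DEN WT libraries, while the other 9 overlapped. The interaction was -1.36 ± 0.26 (edgeR adjusted p = 0.735; DESeq2 adjusted p = 0.0108), and -1.30 ± 0.27 without DEN WT replicate 2 (DESeq2 adjusted p = 0.0137).

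Mogs (chromosome 6, 83115506 to 83118902), the glucosidase that trims the first glucose from a new N-glycan, was at 36.5, 40.3 and 35.6 CPM in WT without DEN and at 58.8, 62.4 and 52.8 CPM with DEN. In labelled knockout its level was 46.2, 40.3 and 40.4 CPM without DEN and 38.8, 40.6 and 36.2 CPM with DEN. The interaction was -0.76 ± 0.15 (DESeq2 adjusted p = 0.0108), and -0.71 ± 0.15 without the replicate. Gmppb (chromosome 9, 108049239 to 108051923), which makes the GDP-mannose used for glycans, was at 20.6, 13.7 and 12.9 CPM in WT without DEN and at 31.1, 37 and 28.2 CPM with DEN. Levels in labelled knockout were 23.2, 16.3 and 12.4 CPM without DEN and 11.1, 13.6 and 9.93 CPM with DEN. The change with DEN was 1.03 in WT and -0.58 in labelled knockout, with an interaction of -1.61 ± 0.35 (DESeq2 adjusted p = 0.0357). Without the replicate it was -1.50 ± 0.36 and was no longer called by DESeq2 (adjusted p = 0.0526).

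Hspa13 (chromosome 16, 75755190 to 75767276), an Hsp70-family protein of microsomes, was at 18.4, 18.2 and 14.3 CPM in WT without DEN and at 44.1, 48.5 and 33.4 CPM with DEN. Labelled knockout livers had 27.8, 17 and 17.9 CPM without DEN and 18.8, 22.9 and 17.2 CPM with DEN, so these 2 groups overlapped. Its interaction was -1.40 ± 0.30 (DESeq2 adjusted p = 0.0391), and -1.28 ± 0.30 without the replicate (DESeq2 adjusted p = 0.0593). Bhlha15 (Mist1), a transcription factor of secretory cells, was at 5.78, 27.3 and 2.63 CPM in WT with DEN. It was between 0.034 and 1.69 CPM in the other 9 libraries, a level at which its interaction of -6.07 ± 1.61 depends on few counts. DESeq2 called it with all libraries (adjusted p = 0.034) and not without the replicate, where the interaction was -4.57 ± 1.32 (DESeq2 adjusted p = 0.103).

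Tspyl2, a protein related to nucleosome assembly factors, was at 28.1, 20.1 and 17.7 CPM in WT with DEN and between 3.63 and 14.7 CPM elsewhere (interaction -2.30 ± 0.48). Nfxl1 was at 20.5, 19.4 and 19.9 CPM in WT with DEN; elsewhere it was between 6.52 and 17.2 CPM (interaction -1.70 ± 0.36). Slc17a9, which loads nucleotides into vesicles, was at 10.2, 17.6 and 10.8 CPM in WT with DEN and between 4.76 and 7.29 CPM elsewhere (interaction -1.33 ± 0.28). DESeq2 also called these 3 without DEN WT replicate 2, with interactions of -2.35, -1.72 and -1.04. Tmed3, a cargo receptor of ER vesicles that DESeq2 did not call, completes the 8 smallest edgeR p-values in this direction: it was at 31, 38.4 and 27.6 CPM in WT with DEN and between 11.4 and 20.4 CPM elsewhere (interaction -1.15 ± 0.25, DESeq2 adjusted p = 0.0524, and -1.01 ± 0.24 without the replicate).

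**Figure D2:**
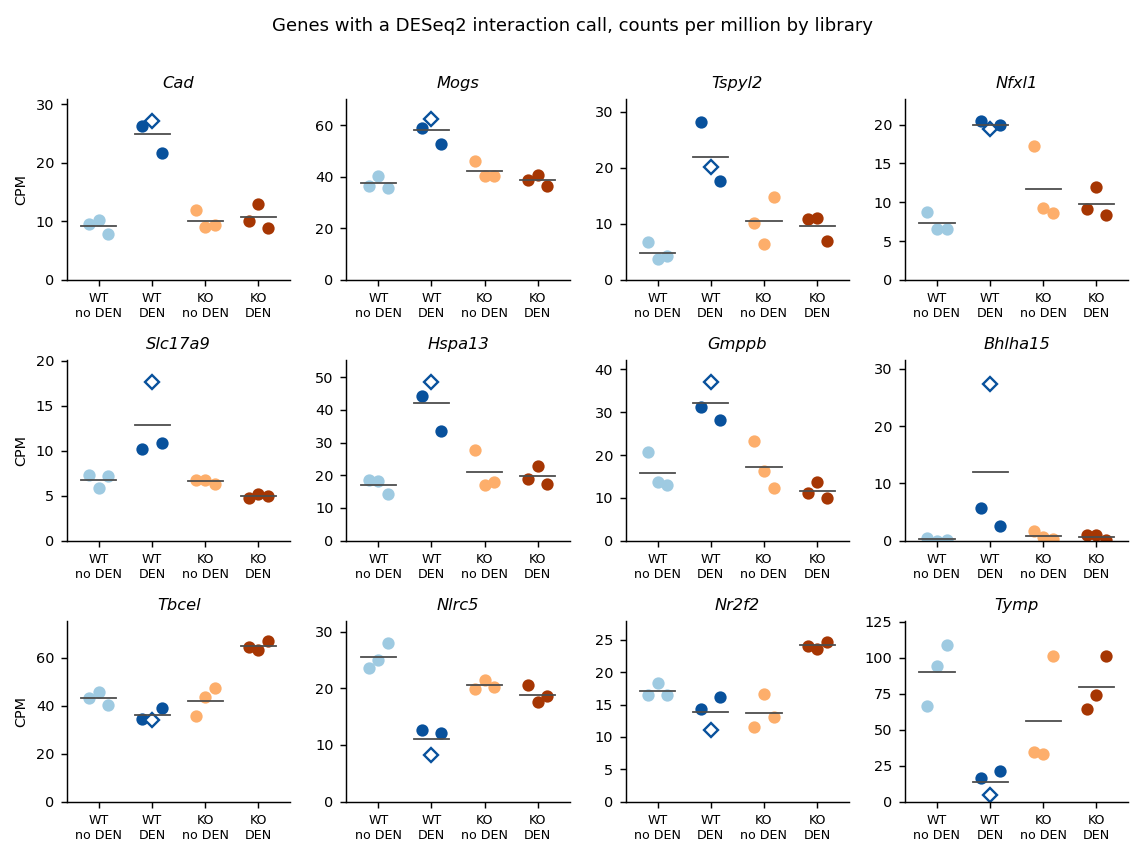
CPM by library for the 12 genes that DESeq2 called with all libraries, by genotype label (WT, KO) and treatment; horizontal bars are group means of 3 libraries and the open diamond is DEN WT replicate 2. In the first 8 panels the DEN WT libraries are the highest 3; in Tbcel and Nr2f2 the DEN KO libraries are highest, and in Nlrc5 and Tymp the DEN WT libraries are lowest.

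Genes of the ER chaperone and UPR list mostly had an interaction below 0. Of its 32 members, 11 had a lower interaction at an unadjusted edgeR p under 0.05 and 0 a higher one. Over all genes tested 4.38% were lower and 2.15% higher. The list's median was -0.71, against -0.02 over all genes tested. With DEN the median level moved by 0.47 in WT and by -0.29 in labelled knockout. Without DEN WT replicate 2, 13 were lower and 0 higher, against 3.87% and 2.91% of all tested genes. The list's median was then -0.49. DESeq2 and edgeR called 0 members after adjustment. Leaving out No DEN labelled knockout replicate 1 left 7 lower genes and, within the fit without DEN WT replicate 2, 6 when DEN WT replicate 1 was also left out.

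Hspa5, the main ER chaperone, was at 1075, 682 and 704 CPM in WT without DEN and at 1935, 3169 and 1274 CPM with DEN. In labelled knockout it was at 869, 555 and 735 CPM without DEN and at 693, 735 and 535 CPM with DEN. All DEN WT libraries were above the other 9, and the labelled knockout groups overlapped. The interaction was -1.51 ± 0.47 (edgeR adjusted p = 0.735), and -1.10 ± 0.36 without the replicate.

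Eif2ak3, the UPR sensor kinase PERK, was at 30.9, 31.8 and 26.6 CPM in WT with DEN and between 8.05 and 18.1 CPM elsewhere. Its interaction was -1.48 ± 0.35, and -1.43 ± 0.36 without the replicate. Creld2, an ER stress-inducible isomerase, was at 188, 101 and 107 CPM in WT with DEN, 88.4, 50.4 and 54.8 CPM in WT without DEN, 72.4, 34.9 and 33.4 CPM in labelled knockout without DEN, and 31.7, 36.5 and 21.6 CPM with DEN. Hyou1, a large ER chaperone of the Hsp70 family, was at 473, 331 and 325 CPM in WT with DEN and between 103 and 232 CPM elsewhere. The interactions of Creld2 and Hyou1 were -1.68 ± 0.52 and -1.33 ± 0.43, and -1.84 ± 0.53 and -1.42 ± 0.44 without the replicate.

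Members of the ER list with and without the promoter element had similar values. The 9 with the element had a median interaction of -0.59, from -1.68 (Creld2) to 0.09 (Calr), and 2 were lower at the unadjusted threshold. The 20 with a window and no element had a median of -0.64, and 6 were lower. Calr, a lectin chaperone named here after its values were seen, was at 1236, 1521 and 1717 CPM in WT without DEN and at 951, 856 and 796 CPM with DEN. The labelled knockout libraries were at 1330, 929 and 1182 CPM without DEN and at 748, 717 and 672 CPM with DEN. It was thus lower with DEN in both genotypes without overlap, and its interaction was 0.09 with a 95% interval of -0.52 to 0.71. Syvn1, a ubiquitin ligase of ER-associated degradation and also named after its values were seen, had an interaction of -1.09 ± 0.54, and -1.33 ± 0.50 without the replicate.

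3 further secretory lists were put together after these values were seen and are given as description. At the unadjusted threshold 4.38% of all tested genes were lower, and 3.87% without DEN WT replicate 2. Of 22 signal recognition and translocation genes, 12 had a lower interaction at the unadjusted threshold and 0 a higher one (median -0.59), and 11 without DEN WT replicate 2 (median -0.39). Of 29 N-glycan genes 11 were lower (median -0.39), and 9 without the replicate. Of 29 genes of COPII and COPI vesicles, which carry cargo between ER and Golgi, 8 were lower with and without the replicate (medians -0.27 and -0.19; without the replicate the median was 0.03 on the TPM scale). Leaving out DEN WT replicate 1 as well as replicate 2 left 5 lower translocation genes and 4 lower vesicle genes, and leaving out DEN labelled knockout replicate 1 as well as DEN WT replicate 2 left 6 lower N-glycan genes. In 11 of the 22 translocation genes all 3 DEN labelled knockout libraries were below the other 9, an order that 2.87% of all tested genes had.

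In some genes the change with DEN had opposite signs in the genotypes. Kdelr2, the receptor that returns chaperones to the ER, was at 95, 78.2 and 84.1 CPM in WT without DEN and at 110, 164 and 100 CPM with DEN. Levels in labelled knockout were 105, 98.5 and 100 CPM without DEN and 74.9, 82.2 and 73.4 CPM with DEN. Within each genotype the groups did not overlap, and the direction was opposite. The interaction was -0.94 ± 0.25, and -0.69 ± 0.15 without DEN WT replicate 2, where DESeq2 called it (adjusted p = 0.0137). Sec11a, the catalytic subunit of signal peptidase, was at 57, 66.6 and 48.2 CPM in WT with DEN and at 36.1, 40.1 and 35.3 CPM in labelled knockout with DEN, against 40.1 to 50.7 CPM in the 6 libraries without DEN (interaction -0.71 ± 0.19, and -0.58 ± 0.16 without the replicate). Hapln4, a hyaluronan link protein, had changes with DEN of 0.80 in WT and -0.79 in labelled knockout, and R3hdm1 of 0.37 and -0.40. Their interactions were -1.60 ± 0.40 and -0.78 ± 0.21 with all libraries and -1.21 ± 0.31 and -0.71 ± 0.21 without the replicate. Opposite signs with an unadjusted edgeR p under 0.05 in each genotype were counted with all libraries. The count covers only genes with a mean CPM of at least 1 that are not predicted gene models. It held 11 genes with a lower and 5 with a higher interaction.

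Cytosolic heat-shock chaperones are a separate system that folds proteins outside the ER. At the unadjusted threshold 4.38% of all tested genes were lower, and 3.87% without DEN WT replicate 2. Of the 20 members of this list, 7 were lower and 0 higher (median -0.58), and 8 were lower without the replicate (median -0.65). The count fell to 3 on leaving out No DEN labelled knockout replicate 1, DEN labelled knockout replicate 3 or DEN WT replicate 1, and to 2 without both DEN WT replicates 1 and 2. Hspa1a, the inducible Hsp70, was at 2.15, 0.883 and 0.7 CPM in WT without DEN and at 35, 33.1 and 19.8 CPM with DEN. Labelled knockout livers had 1.65, 1.08 and 2.43 CPM without DEN and 9.97, 8.78 and 6.66 CPM with DEN. With DEN the levels were above those without DEN in both genotypes without overlap, by 4.56 in WT and 2.3 in labelled knockout on the log2 scale. The interaction was -2.26 ± 0.58 (edgeR adjusted p = 0.735), and -2.16 ± 0.60 without the replicate. Reads of Hspa1a and its near-identical neighbour Hspa1b can be split between the copies, and Hspa1b had an interaction of -1.82.

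Dnajb1, an Hsp40 partner of Hsp70, was at 101, 81.5 and 79 CPM in WT with DEN and at 48.7, 47.2 and 43.4 CPM in labelled knockout with DEN, against 22.9 to 35.9 CPM without DEN. Its interaction was -0.73 ± 0.25, and -0.77 ± 0.26 without the replicate. Hspa4l, a nucleotide exchange factor of the Hsp110 family, had an interaction of -0.97 ± 0.25, and Hspb1, a small heat-shock protein, of -0.97 ± 0.38; without the replicate Hspb1 was at -1.01 ± 0.40 and Hspa4l at -1.0 ± 0.26.

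Among genes with a higher interaction, DESeq2 called 4. Here too, the choice of genes by the interaction favours the orders of libraries described below. Tbcel, a tubulin-folding cofactor-like protein (chromosome 9, 42412316 to 42472238), was at 43.1, 45.8 and 40.4 CPM in WT without DEN and at 34.7, 34.3 and 39.1 CPM with DEN. In labelled knockout it was at 35.7, 43.6 and 47.3 CPM without DEN and at 64.7, 63.4 and 67 CPM with DEN, which puts the DEN labelled knockout libraries above the other 9 (1.56% of all tested genes). The interaction was 0.88 ± 0.17 (DESeq2 adjusted p = 0.00709), and 0.85 ± 0.17 without DEN WT replicate 2 (DESeq2 adjusted p = 0.0115). Nr2f2 (COUP-TFII) is a nuclear receptor found in venous endothelium and in mesenchymal cells. It had the same order, with 24.1, 23.6 and 24.7 CPM in labelled knockout with DEN and 11.1 to 18.4 CPM elsewhere. Its interaction was 1.12 ± 0.23, and 0.98 ± 0.21 without the replicate.

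In the other 2 the DEN WT libraries were below the other 9, as in 1.63% of all tested genes. Nlrc5, the transactivator of MHC class I genes (chromosome 8), was at 23.5, 24.9 and 28 CPM in WT without DEN and at 12.6, 8.3 and 12.1 CPM with DEN. The labelled knockout libraries were at 19.9, 21.4 and 20.3 CPM without DEN and at 20.6, 17.5 and 18.6 CPM with DEN, groups that overlapped. The interaction was 1.09 ± 0.22 (DESeq2 adjusted p = 0.0205), and 0.92 ± 0.16 without the replicate (DESeq2 adjusted p = 0.00582). Tymp, thymidine phosphorylase, was at 66.7, 94 and 109 CPM in WT without DEN and at 16.3, 4.31 and 21.1 CPM with DEN. Levels in labelled knockout were 34.2, 33.4 and 101 CPM without DEN and 64.5, 74.4 and 101 CPM with DEN. The interaction was 3.20 ± 0.79, and 2.78 ± 0.63 without the replicate.

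At the unadjusted threshold 2.15% of all tested genes had a higher interaction, and 2.91% without DEN WT replicate 2. Of 30 interferon response genes tested, 5 were higher and 0 lower, with a median of 0.52. Without the replicate 7 were higher and 0 lower, with a median of 0.57. The median change with DEN was -0.27 in WT and 0.46 in labelled knockout. The list's median of labelled knockout minus WT was -0.37 without DEN and 0.10 with DEN, and -0.36 and 0.13 in the fit without DEN WT replicate 2. Irf9, the DNA-binding subunit of an interferon-activated transcription complex, was at 51.2, 47.1 and 42.1 CPM in WT without DEN and at 28.5, 18.2 and 24.7 CPM with DEN. Labelled knockout livers had 33.8, 36.5 and 24.6 CPM without DEN and 27.6, 29.1 and 25 CPM with DEN. WT groups did not overlap and labelled knockout groups did (interaction 0.76 ± 0.26, and 0.60 ± 0.22 without the replicate). Dhx58, a sensor of viral RNA outside the list, had an interaction of 1.18 ± 0.29, Gbp3, a guanylate-binding protein, of 1.14 ± 0.44, and Psmb9, an immunoproteasome subunit, of 0.83 ± 0.33. Without the replicate these were 1.04, 0.91 and 0.60. On leaving out single libraries the count ranged from 2 (without DEN labelled knockout replicate 2, No DEN labelled knockout replicate 3 or No DEN WT replicate 2) to 9, and to 13 within the fit without DEN WT replicate 2 when No DEN labelled knockout replicate 2 was left out. The median level of the list was lowest, at -0.70 log2 relative to WT without DEN, in No DEN labelled knockout replicate 3.

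The next list holds fatty acid oxidation genes and targets of PPAR-alpha, the nuclear receptor that fatty acids activate. It had 5 of 28 members higher and 0 lower at the unadjusted threshold (median 0.66). Without DEN WT replicate 2, 7 were higher (median 0.58). Of all tested genes 2.15% were higher with all libraries and 2.91% without the replicate. The list's median of labelled knockout minus WT was -0.63 without DEN and 0.17 with DEN. In the fit without DEN WT replicate 2 these medians were -0.62 and -0.01. Plin2, which coats lipid droplets, was at 975, 907 and 770 CPM in WT without DEN and at 316, 555 and 367 CPM with DEN. In labelled knockout it was at 525, 411 and 401 CPM without DEN and at 348, 446 and 650 CPM with DEN. The WT groups were apart and the labelled knockout groups overlapped. The interaction was 1.21 ± 0.39, and 1.49 ± 0.33 without the replicate, where DESeq2 called it (adjusted p = 0.012). Labelled knockout differed from WT already without DEN, by -0.99 on the log2 scale, and by 0.22 with DEN.

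Vnn1, a pantetheinase that PPAR-alpha induces, had an interaction of 2.02 ± 0.65, Cidec, a lipid droplet protein also made by adipocytes, of 2.53 ± 0.87, and Acadm, medium-chain acyl-CoA dehydrogenase, of 0.77 ± 0.29. Without the replicate these were 1.63, 2.14 and 0.64. Of the 4 adipocyte markers only Cfd was listed in all tables, and it ranged from 0.0768 to 6.55 CPM in labelled knockout without DEN and from 16.8 to 30.9 CPM with DEN. It ranged from 3.96 to 38.1 CPM in WT without DEN and from 0.0752 to 31.7 CPM with DEN; its part in the result was not tested. The count of this list ranged from 3 (without DEN labelled knockout replicate 3) to 8 (without DEN labelled knockout replicate 1) on leaving out single libraries, and was 12 when No DEN labelled knockout replicate 3 was left out together with DEN WT replicate 2.

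**Figure D3:**
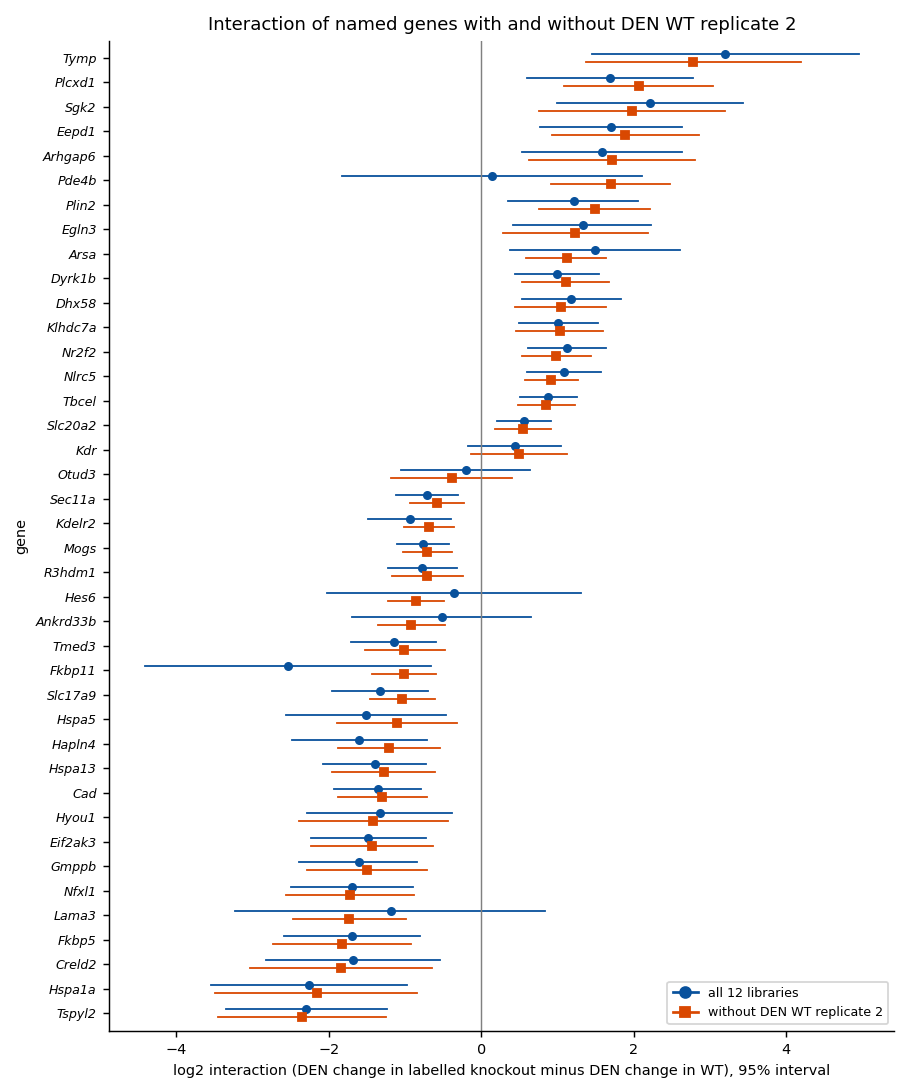
Log2 interaction with its 95% interval from edgeR, for 40 named genes, with all 12 libraries (blue circles) and without DEN WT replicate 2 (orange squares). The intervals of Pde4b, Hes6, Ankrd33b and Lama3 cross 0 with all libraries and do not without the replicate.

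Some genes were called by DESeq2 without DEN WT replicate 2 and not with it; whether the fits differ was not tested. Hes6, a transcription factor of the Hes family, was at 112 and 103 CPM in DEN WT replicates 1 and 3 and at 13.5 CPM in replicate 2. It was at 58, 49.7 and 51.9 CPM in WT without DEN, at 72, 85.8 and 83.3 CPM in labelled knockout without DEN and at 87.9, 100 and 80.7 CPM with DEN. The interaction was -0.36 ± 0.75 with all libraries and -0.86 ± 0.17 without the replicate (DESeq2 adjusted p = 0.0106). Pde4b, a phosphodiesterase that degrades cyclic AMP, was at 3.87 and 6.09 CPM in DEN WT replicates 1 and 3, at 33.9 CPM in replicate 2, and at 14.1, 12.2 and 9.84 CPM in labelled knockout with DEN. Its interaction was 0.14 ± 0.89 with all libraries and 1.70 ± 0.35 without the replicate (DESeq2 adjusted p = 0.0117).

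Fkbp11, an ER proline isomerase, was at 18.3, 18.3 and 16.5 CPM in labelled knockout without DEN and at 8.7, 7.07 and 7.99 CPM with DEN. In WT it was at 11.4, 9 and 10.7 CPM without DEN and at 10, 61.7 and 8.88 CPM with DEN. With 2 DEN WT libraries the WT groups overlapped, and the interaction was -1.02 ± 0.19 (DESeq2 adjusted p = 0.0106). With all 3 it was -2.53 ± 0.85. Lama3, a laminin chain of basement membranes, had an interaction of -1.19 ± 0.92 with all libraries and -1.73 ± 0.34 without the replicate, Arsa, a lysosomal sulfatase, of 1.49 ± 0.50 and 1.12 ± 0.24, and Plcxd1 of 1.69 ± 0.49 and 2.07 ± 0.44. Klhdc7a (1.01 and 1.03), Eepd1 (1.70 and 1.89) and Sgk2 (2.21 and 1.98) had values above 0 in both fits.

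In several lists the median lay nearer 0 without DEN WT replicate 2. The S phase and mitosis list had 9 of 28 members lower and 0 higher with all libraries (median -1.35). Without the replicate 6 were lower (median -0.44). Of all tested genes 4.38% were lower at the unadjusted threshold with all libraries and 3.87% without the replicate. The list's first count was 14 without DEN WT replicate 3 and 6 without DEN labelled knockout replicate 3. On the TPM scale the medians were -0.39 and -0.05. The list's median level relative to WT without DEN was 1.54 in DEN WT replicate 2, against 0.21 and 0.28 in the other DEN WT libraries and 0.16 to 0.31 in labelled knockout with DEN. In labelled knockout without DEN this level was 0.13, 0.47 and 0.31. The list's median of labelled knockout minus WT was 0.58 without DEN and -0.82 with DEN. In the fit without DEN WT replicate 2 these medians were 0.59 and -0.03. Cdk1, the kinase that drives mitosis, was at 1.94, 2.98 and 1.28 CPM in WT with DEN and at 1.56, 1.22 and 1.18 CPM in labelled knockout with DEN. Its interaction was -1.66 ± 0.46, and -1.30 ± 0.39 without the replicate. Mki67, the proliferation marker, was at 1.44, 5.09 and 0.769 CPM in WT with DEN, and its interaction went from -1.81 ± 0.84 to -0.66 ± 0.52.

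Cholesterol synthesis genes had 7 of 22 members lower with all libraries (median -0.89) and 2 without the replicate (median -0.53). Of all tested genes 4.38% were lower at the unadjusted threshold with all libraries and 3.87% without the replicate. Lss, lanosterol synthase, was at 25, 24.9 and 30 CPM in WT without DEN and at 49.1, 133 and 49.3 CPM with DEN. The labelled knockout libraries were at 50, 30.1 and 70.7 CPM without DEN and at 40.9, 57.8 and 47.1 CPM with DEN. WT groups did not overlap and labelled knockout groups did, and the interaction went from -1.58 ± 0.56 to -0.93 ± 0.37. The median level of the list in labelled knockout without DEN differed among libraries, at 0.78, 0.12 and 1.26. When No DEN labelled knockout replicate 2 was left out, 13 were lower, and 0 when both DEN WT replicates 1 and 2 were.

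Oncofetal and liver tumour marker genes had 3 of 17 members lower and 1 higher (median -1.73) with all libraries. Of all tested genes 4.38% were lower and 2.15% higher. Without the replicate 1 member was lower and 1 higher (median 0.07), against 3.87% and 2.91% of all tested genes. Leaving out DEN WT replicate 1 instead gave 8 lower members. Afp, the fetal plasma protein alpha-fetoprotein, was at 1.08, 56.5 and 1.95 CPM in WT with DEN and at 1.68, 0.884 and 4.21 CPM in labelled knockout with DEN, against 0.442 to 0.83 CPM without DEN. Its interaction was -3.65 ± 1.81 with DEN WT replicate 2 and 0.07 ± 0.80 without it. Scd2, a fatty acid desaturase, was at 7.91, 929 and 10.1 CPM in WT with DEN, and its interaction went from -5.02 ± 1.99 to 0.12 ± 0.39. Cyp2a4, a cytochrome whose reads can be split with the near-identical Cyp2a5, reached 10480 CPM in the replicate, and its interaction went from -4.13 ± 2.87 to 1.4 ± 1.86.

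Of all tested genes, 47.4% had an interaction above 0 with all libraries and 51.1% without the replicate. Genes of the pericentral zone, which Wnt signals maintain around the central vein, had 16 of 18 members above 0 with all libraries (median 0.81) and 13 without the replicate (median 0.30). At the unadjusted threshold in edgeR, 0 members passed with all libraries and 1 was higher without the replicate. Of all tested genes 2.91% were higher without the replicate. Glul, glutamine synthetase, was at 894, 32.3 and 987 CPM in WT with DEN and between 721 and 1132 CPM in the other 9 libraries. Its interaction was 0.96 ± 1.11, and 0.40 without the replicate with a 95% interval of -0.21 to 1.01. Nuclear genes of oxidative phosphorylation all had values above 0 with all libraries (33 of 33, median 0.29), and 25 of 33 did without it (median 0.08). None of the 33 passed the unadjusted threshold in edgeR in either fit. Matrix and stellate cell genes had 0 of 21 past the threshold with all libraries; without the replicate 4 were higher (median 0.52), among them Col1a1, the main fibrillar collagen chain, at 1.21 with a 95% interval of 0.01 to 2.41. Leaving out 1 more library, the number higher ran from 1 (WT with DEN, replicate 1) to 10 (labelled knockout without DEN, replicate 3), and the median from 0.26 to 0.74.

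**Figure D4:**
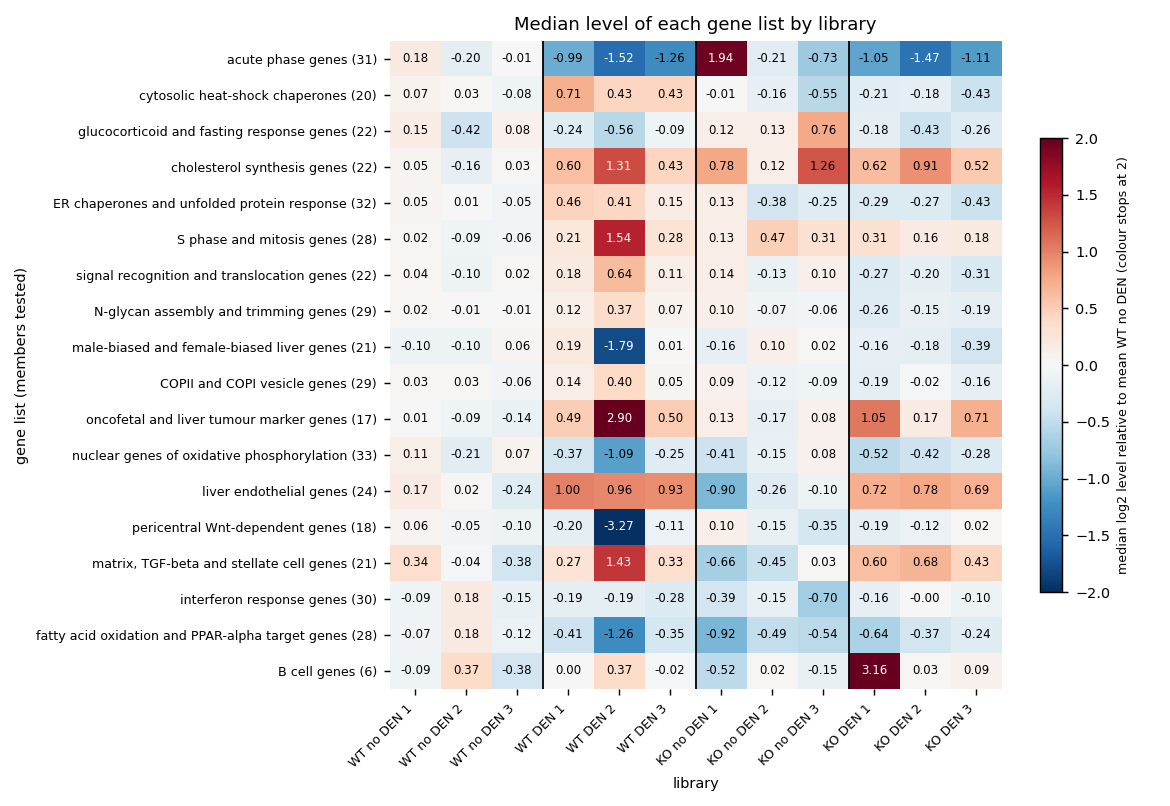
Median log2 level of 18 gene lists (rows, with the number of members tested) in each of the 12 libraries (columns), relative to the mean of WT without DEN; colour stops at 2 and the values are printed. DEN WT replicate 2 differs from the other DEN WT libraries in the oncofetal (2.90), S phase (1.54) and pericentral (-3.27) rows, No DEN labelled knockout replicate 1 in the acute phase row (1.94) and DEN labelled knockout replicate 1 in the B cell row (3.16).

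In other lists 1 labelled knockout library stood apart. The acute phase list, proteins that the liver secretes in inflammation, had 30 of 31 members below 0 and a median of -0.81, with 2 lower at the unadjusted threshold. Of all tested genes 52.6% were below 0 and 4.38% were lower at that threshold. No DEN labelled knockout replicate 1 was at a median level of 1.94, against -0.21 and -0.73 in the other 2 of its group. Without it the median was 0.33, 9 members were below 0, and 1 was higher and 0 lower at the unadjusted threshold. Lcn2, an iron-trapping acute phase protein, was at 1545 CPM there and at 11.7 and 3.83 CPM in the other libraries of that group. Its interaction was -8.27 ± 2.88 with all libraries, -2.20 without that library and 1.05 when DEN WT replicate 2 was left out as well. Saa1, serum amyloid A, was at 8398, 187 and 50.3 CPM in that group, and its interaction went from -2.82 ± 2.25 to 1.78 without that library.

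B cell genes had 3 of 6 members higher (median 2.74), against 2.15% of all tested genes. Cd79a, a signalling chain of the B cell receptor, was at 10.6, 0.731 and 0.818 CPM in labelled knockout with DEN and between 0.23 and 1.23 CPM in the other groups, so a single library was high. Its interaction was 3.34 ± 1.4, and 3.85 ± 1.59 without DEN WT replicate 2. Without DEN labelled knockout replicate 1 the median was 0.43, and 0 members passed the unadjusted edgeR threshold. The count was also 0, with medians of 2.08 to 2.64, when No DEN labelled knockout replicate 1, No DEN WT replicate 2 or DEN WT replicate 1 or 3 was left out. The summed B cell markers were at 29.9 CPM in that library and at no more than 2.93 CPM in the other 11, while Kupffer cell markers summed to 549 CPM there and to no more than 207 CPM elsewhere. Bulk RNA does not tell fewer cells of a type from less RNA per cell.

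**Figure D5:**
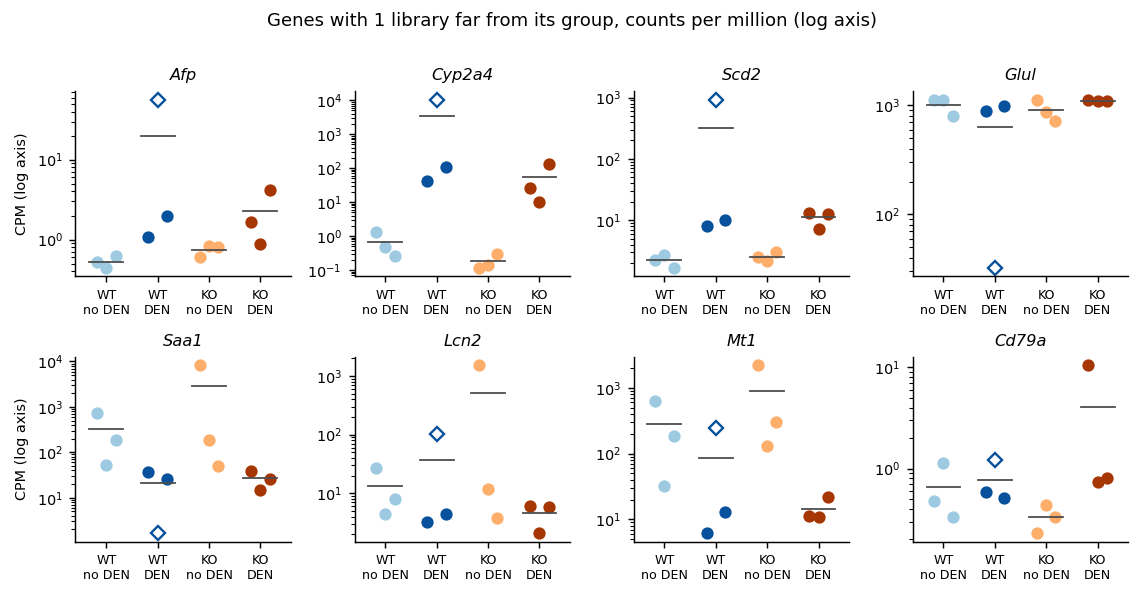
CPM by library on a log axis for 8 genes, by genotype label and treatment; bars are group means and the open diamond is DEN WT replicate 2. In the upper row that library lies far from the rest of its group. In the lower row No DEN labelled knockout replicate 1 is highest in Saa1, Lcn2 and Mt1, and DEN labelled knockout replicate 1 in Cd79a. Leaving out DEN WT replicate 2 also moved the interaction of Mt1, from -4.23 to -1.06, and of Lcn2, from -8.27 to -5.02.

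Glucocorticoid and fasting response genes had 1 of 22 members lower with all libraries (median -0.71), near the share of all tested genes (4.38%). Without DEN WT replicate 2, 6 were lower (median -0.65), against 3.87% of all tested genes. Replicate 3 of the labelled knockout without DEN was at a median level of 0.76, against 0.12 and 0.13 in the rest of its group. Leaving it out brought the medians to -0.32 and -0.19, with 2 and 3 members higher and 1 and 5 lower. Fkbp5, a co-chaperone that the glucocorticoid receptor induces, was at 110, 107 and 87.1 CPM in WT without DEN and at 97.7, 72.7 and 96.8 CPM with DEN. Levels in labelled knockout were 169, 149 and 72.1 CPM without DEN and 27.3, 42.5 and 35.7 CPM with DEN. The WT groups overlapped, and the DEN labelled knockout libraries were below the other 9. The interaction was -1.70 ± 0.40, and -1.83 ± 0.41 without the replicate, where DESeq2 called it (adjusted p = 0.0137). The labels give neither the feeding state nor the hour of collection.

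The list of liver sex-biased genes pools male-biased and female-biased members, so its counts and medians have no direction by sex. With all libraries 2 of 21 members were lower and 1 higher. Without DEN WT replicate 2, 6 were lower and 1 higher. The interaction of members ran from -9.53 to 3.67 with all libraries and from -10.12 to 4.24 without the replicate. The medians were -0.15 and -0.24, and with all libraries the median was 0.19 on the TPM scale. Of all tested genes 4.38% were lower and 2.15% higher with all libraries, and 3.87% and 2.91% without the replicate. Selenbp2, a selenium-binding protein, was at 580, 662 and 659 CPM in WT without DEN, at 1204, 183 and 894 CPM with DEN, at 1416, 1650 and 642 CPM in labelled knockout without DEN and at 479, 281 and 122 CPM with DEN. Its interaction was -2.33 ± 0.91, and -2.80 ± 0.67 without the replicate (DESeq2 adjusted p = 0.0117). Moxd1 reached 168 CPM in No DEN labelled knockout replicate 1 and was at 0.614 and 0.0736 CPM in the other 2, and its interaction was -9.53 ± 3.48, and -10.12 ± 3.31 without DEN WT replicate 2. Leaving out the library at 168 CPM brought these values to -2.21 and -2.79.

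Liver endothelial genes had a median change with DEN of 1.09 in WT and 1.34 in labelled knockout. The interaction had a median of 0.19, and 1 of 24 members was higher at the unadjusted threshold, against 2.15% of all tested genes. Without DEN WT replicate 2 the median was 0.28, again with 1 member, against 2.91% of all tested genes. Kdr, the VEGF receptor of endothelium, was at 14.4, 14.2 and 10.8 CPM in WT without DEN and at 31.7, 36.9 and 34.1 CPM with DEN. Labelled knockout livers had 6.14, 10.5 and 9.23 CPM without DEN and 30, 35.3 and 26.2 CPM with DEN. DEN groups lay above those without DEN in both genotypes. The interaction was 0.44 with a 95% interval of -0.17 to 1.05 (0.50 without DEN WT replicate 2), so a response in labelled knockout up to 1.05 log2 larger is within the error. Alb, the main hepatocyte secretory product, was between 50536 and 90505 CPM, with an interaction of -0.15 and a 95% interval of -1.08 to 0.77 (-0.04 without DEN WT replicate 2).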

How the data were processed

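RNA-seq of 12 mouse liver libraries was analysed from 4 deposited tables, 1 per group. The tools named in the submitters' processing notes are RSEM (1.3.1), Bowtie2 (2.3.4.3), HISAT2 (2.2.1) and DESeq2 (1.4.5), and the build is GRCm38.p6; neither their roles nor the strand setting is stated there. Per the file headers and values, the authors deposited expected counts (6.581 to 7.39% of values not whole) and TPM, listing genes at a TPM of 0.01 or more. Tables were joined by gene ID, and the joined genes held 99.847 to 99.989% of each library's counts. Expected counts were rounded. The interaction was fitted with edgeR 4.0.16 (TMM, filterByExpr, robust quasi-likelihood test, 1 coefficient per group, Benjamini-Hochberg adjustment) on all genes, with all 12 libraries and without DEN WT replicate 2, after a test on simulated data. DESeq2 1.42.0, limma 3.58.1 and R 4.3.3 served the alternatives. Standard errors came from the log2 fold change and its F value.

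The members and gene lists were chosen with earlier results of these data known. Named genes were Otud3; the 8 genes in each direction with the smallest p in each fit (mean CPM of at least 1, predicted gene models skipped); genes that DESeq2 called with all libraries; up to 5 genes in each direction with opposite signs; up to 4 members per described list with the smallest p; and a set of marker genes; some of these are not reported here. Other names are said to be chosen after their values were seen or are given only beside a named gene. Replicates are separate mice, per the series' design text. Shared replicate numbers were not treated as pairs, except in the alternative with a replicate block. List levels are median log2(CPM + 0.5). Genes missing from a table were left out, and setting them to 0 there was an alternative.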

Additional observations from a re-analysis of the deposited data

Results flagged for a closer look

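For 12 genes the DESeq2 test of the interaction itself, with all 12 libraries and adjustment over all genes, put the change with DEN apart between the genotypes. edgeR called 0 of them after adjustment (842 genes passed an unadjusted p under 0.05). The DESeq2 log2 interaction was below 0 for Cad (-1.35), Mogs (-0.75), Tspyl2 (-2.28), Nfxl1 (-1.69), Slc17a9 (-1.32), Hspa13 (-1.39), Gmppb (-1.60) and Bhlha15 (-6.07). It was above 0 for Tbcel (0.90), Nlrc5 (1.11), Nr2f2 (1.14) and Tymp (3.22). Without DEN WT replicate 2, DESeq2 called 9 of the 12 again; Hspa13 (adjusted p = 0.0593), Gmppb (adjusted p = 0.0526) and Bhlha15 (adjusted p = 0.103) were the others.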

How the results depend on the processing

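The 0 edgeR calls of the interaction did not move under another scaling, filter or dispersion setting, the replicate block, limma-voom or TPM. With all 12 libraries DESeq2 called 12 genes, limma-voom with quality weights 1, and edgeR 11 with missing genes set to 0, of which 11 were missing from a table and 9 from that of WT with DEN. Without DEN WT replicate 2 the same alternatives called 28, 1 and 6, and leaving out single libraries gave 0 to 3, the latter without No DEN labelled knockout replicate 3. The 842 genes at an unadjusted p under 0.05 became 2132 with quality weights and ranged from 486 (without DEN labelled knockout replicate 3) to 1457 (without No DEN labelled knockout replicate 3) on leaving out single libraries; the count was 537 without No DEN labelled knockout replicate 1, 1412 without DEN WT replicate 3 and 555 on omitting No DEN WT replicate 3. The 878 without DEN WT replicate 2 became 2047 and ranged from 352 (without DEN WT replicate 1) to 2061 (without No DEN labelled knockout replicate 3), with 566 without DEN labelled knockout replicate 3. Same-numbered libraries had 18 correlations of deviations between -0.19 and 0.22, 4 over 0.1. Differently numbered libraries were not compared, so these values do not decide whether the numbers pair libraries. With the replicate block 848 and 1037 genes passed the unadjusted threshold and 0 were called.

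Of 2472 values of 99 named genes with all libraries, 35 changed sign in 17 genes, and of 2273 without DEN WT replicate 2, 42 in 15 genes; the cause was not tested. With all libraries, on the log2 TPM scale with limma-trend, the interaction was 0.25 for Otud3 and 0.15 for Hes6. With all libraries, with limma-voom, the interaction was 0.09 for Hes6 and 0.06 for Saa1. With all libraries, with No DEN labelled knockout replicate 1 and DEN WT replicate 2 both left out (chosen after seeing the data), the interaction was 1.16 for Cyp2a4, 1.23 for Saa1, 1.29 for Col1a1, 0.97 for Mt1, 1.18 for Mt2, 1.05 for Lcn2, 0.08 for Apcs, 1.83 for Il1rn, 0.46 for Col4a1 and 0.10 for Scd2. With all libraries, with limma-voom and quality weights, the interaction was -1.0 for Adgre1, 1.28 for Col1a1, -0.75 for Cd79b, 0.26 for Mt1, 0.28 for Mt2, 0.71 for Il1rn and 0.52 for Col4a1. On leaving out single libraries of all 12, it ranged from -0.43 to 0.11 for Otud3, -0.29 to 1.70 for Pde4b, -0.86 to 0.03 for Hes6, -0.34 to 0.03 for Alb, -4.46 to 0.07 for Afp, -5.75 to 1.4 for Cyp2a4, -4.25 to 1.78 for Saa1, -0.90 to 1.75 for Adgre1, -2.45 to 1.21 for Col1a1, -0.70 to 2.64 for Cd79b and -5.59 to 0.12 for Scd2. With that replicate left out, on the log2 TPM scale with limma-trend, the interaction was 0.19 for Otud3, 0.20 for Alb, -0.58 for Cyp2a4 and 0.15 for Col4a1. With that replicate left out, with library size scaling, the interaction was 0.07 for Alb. With that replicate left out, with limma-voom and quality weights, the interaction was -0.62 for Afp, -0.48 for Cyp2a4, -1.0 for Adgre1, -0.75 for Cd79b, 0.27 for Mt1, 0.27 for Mt2, 0.75 for Il1rn, 0.56 for Col4a1 and -0.23 for Scd2. With that replicate left out, with limma-voom, the interaction was -0.17 for Afp, -0.25 for Adgre1, 0.18 for Il1rn and 0.02 for Col4a1. With that replicate left out, with the replicate block, the interaction was 0.17 for Il1rn. On leaving out single libraries besides that replicate, it ranged from -0.22 to 0.15 for Alb, -0.75 to 0.55 for Afp, -0.23 to 2.24 for Cyp2a4, -4.79 to 1.23 for Saa1, -1.13 to 1.53 for Adgre1, -0.49 to 2.86 for Cd79b, -0.67 to 0.25 for Sgk1, -2.41 to 0.97 for Mt1, -2.52 to 1.18 for Mt2, -6.10 to 1.05 for Lcn2, -1.77 to 0.08 for Apcs, -1.85 to 1.83 for Il1rn, -0.55 to 0.46 for Col4a1 and -0.07 to 0.35 for Scd2. There were 3 mice a group, and 2 in WT with DEN in the fit without the replicate. Genes under about 1 CPM in most libraries without DEN, such as Afp and Bhlha15, had wide intervals. Bhlha15 was higher in WT with DEN than in the other groups. Afp was higher with DEN in both genotypes and highest in DEN WT replicate 2, and its standard error was smaller without that library.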

Other observations

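Missing only from the table of WT with DEN were 157 genes, which entered the interaction only where missing genes were set to 0. Missing only from the table of labelled knockout without DEN were 230, from that of WT without DEN 145 and from that of labelled knockout with DEN 43. Lgr5, a receptor of Wnt-responsive cells, had 0.61 to 0.95 TPM in WT without DEN, 0.8 to 0.85 TPM in labelled knockout without DEN and 1.11 to 1.69 TPM in labelled knockout with DEN. Cnmd had 2.23 to 2.69 TPM in WT without DEN, 0.93 to 3.56 TPM in labelled knockout without DEN and 3.92 to 5.22 TPM with DEN. Mogat1, which makes diacylglycerol, had 3.48 to 5.33 TPM in WT without DEN, 0.32 to 2.8 TPM in labelled knockout without DEN and 3.7 to 9.46 TPM with DEN. Other genes missing from the table of WT with DEN were lower with DEN in labelled knockout. Among them, Ube2u had 1.59 to 2.99 TPM in labelled knockout without DEN and 0.61 to 1.29 TPM with DEN. All genes named in this paragraph were chosen after their values were seen. A missing row may stand for a level below the listing minimum or for another filter, which was not tested.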
